A study of Mus musculus with 61 samples.

Results

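The ubiquitin-conjugating enzymes described here were taken by symbol: every gene whose symbol starts with Ube2, leaving out symbols that carry "-ps" for a pseudogene. The rule found 37 of the 24551 genes in the table of oocytes and timed embryos and 38 of the 22911 genes in the table of Klf17 genotypes, where Ube2d4 was added. After the filter on low counts, 34 of the 37 were among the 16234 genes tested over time and 36 of the 38 among the 16694 tested between genotypes. Ube2cbp met the symbol rule only: its current name is Ube3d, and it is known as a ubiquitin ligase. The study followed nascent transcription through mouse preimplantation development with SLAM-seq, in which cells take up the uridine analog 4-thiouridine (4SU) and alkylation of the RNA later marks the labelled transcripts as T-to-C changes in the reads. Polyadenylated RNA was sequenced from wild-type metaphase II (MII) oocytes, which the labels also give as 4SU-treated, and from wild-type embryos of 9 time windows, each given as hours after insemination (hpi), with 3 libraries in each of these 10 groups. All embryos came from in vitro fertilization of oocytes of superovulated females, were exposed to 2 mM 4SU for 6 h and were sequenced as 10 embryos a library, per the series' design text. In the 0-6hpi group the 4SU was already in the medium while sperm and cumulus-oocyte complexes were together. The second experiment holds 3 wild-type control (ctrl) libraries, 3 libraries labelled Klf17 KO, 3 labelled Klf17 maternal KO (mKO) and 2 labelled Klf17 paternal KO (pKO), all from embryos treated with 4SU and collected at the stage that the design text calls M2C. How the Klf17 allele was made and whether libraries of a group came from separate matings is not given in the sources used here. The p-values therefore speak only to the library-to-library spread, which may be technical. Each table holds 1 count a gene and library, and whether T-to-C reads were counted apart from other reads is not given in the sources used here, so a level may include RNA made before labelling.

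Ubiquitin is moved along a cascade: an E1 enzyme activates it, an E2 or ubiquitin-conjugating enzyme carries it on a cysteine, and an E3 ligase brings the loaded E2 to a substrate. The E2 often sets what kind of chain is built, and a few members of the family carry ubiquitin-like proteins such as NEDD8 or ISG15 in place of ubiquitin. In the early embryo, proteins stored in the egg are destroyed through this system around the time at which the embryo's own genome is switched on, and the anaphase-promoting complex uses it to end meiosis and each cleavage division.

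Levels are in CPM, the reads of a gene relative to the library size after scaling by edgeR's TMM factors, and ± marks the standard deviation (SD, n = 3, or 2 in pKO). The libraries held 7395193 to 13301570 counted reads in the time course and 14080264 to 23018252 in the genotype experiment. Ube2 genes took 0.411% to 0.916% of the reads of a time-course library. Their share was 0.543% to 0.610% in MII oocytes, was highest at 18-24hpi at 0.870% to 0.916%, and was lowest at 70-76hpi at 0.411% to 0.421%. A gene was called when the Benjamini-Hochberg adjusted p over all genes tested, from edgeR's quasi-likelihood test, was under 0.05. The log2 changes are edgeR's log2 fold changes, with their standard error (SE). Where a change is named as the largest at its step, the choice was among called members with at least 20 CPM in the higher group and whose groups did not overlap in any library. Oocyte markers were highest in the first groups and blastocyst markers in the last, though neither list moved in 1 direction throughout. The summed level of 9 oocyte genes fell from 9043 to 9359.8 CPM in MII oocytes to 48.4 to 80.9 CPM at 70-76hpi. At 90-96hpi it was higher again, at 118.6 to 172.4 CPM. That of 8 blastocyst genes was 237.4 to 270.1 CPM in MII oocytes, 213.9 to 237.2 at 0-6hpi and 9002 to 12307 at 90-96hpi. That of 7 genes of the 2-cell embryo was highest at 48-54hpi, at 2987 to 3115 CPM. It was 1823 to 2061 CPM at 18-24hpi, 1163 to 1317 at 24-30hpi and 1602 to 1801 at 30-36hpi. Summed over 10 cumulus-cell genes the level was at most 15.1 CPM in any time-course library, and Tnfaip6, Ptx3, Foxl2, Amh, Lhcgr and Fshr were at 0 in all MII libraries. Of 9 sperm and spermatid genes found in the table, Tnp1, Tnp2, Prm3 and Prm1 were at 0 in all libraries of 0-6hpi, while the whole list summed to 234 to 259.9 CPM there and to 187 to 228 CPM in MII oocytes. In libraries of whole embryos, a change in the RNA per cell and a change in the number or kind of cells cannot be told apart.

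Every one of the 34 tested Ube2 genes was called for a difference among the 10 groups. This is no mark of the family, since 98.4% of all genes tested were called in the same test. The members differed in when they were highest: 4 had their highest mean in MII oocytes, 11 between 6 and 24hpi, 2 at 30-36hpi and 17 at 48hpi or later, as the heat map over groups shows. Between the first and the last group, 90-96hpi against MII, 17 members rose and 13 fell, beside 42.6% of all genes called higher and 38.4% called lower. The median log2 fold change of the members was 0.49, against 0.27 over all genes tested. Scaled by total counts alone, the split of the members was 18 higher and 9 lower. Of all genes called, 52.6% were higher in the main test and 58.9% by total counts.

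**Figure D1:**
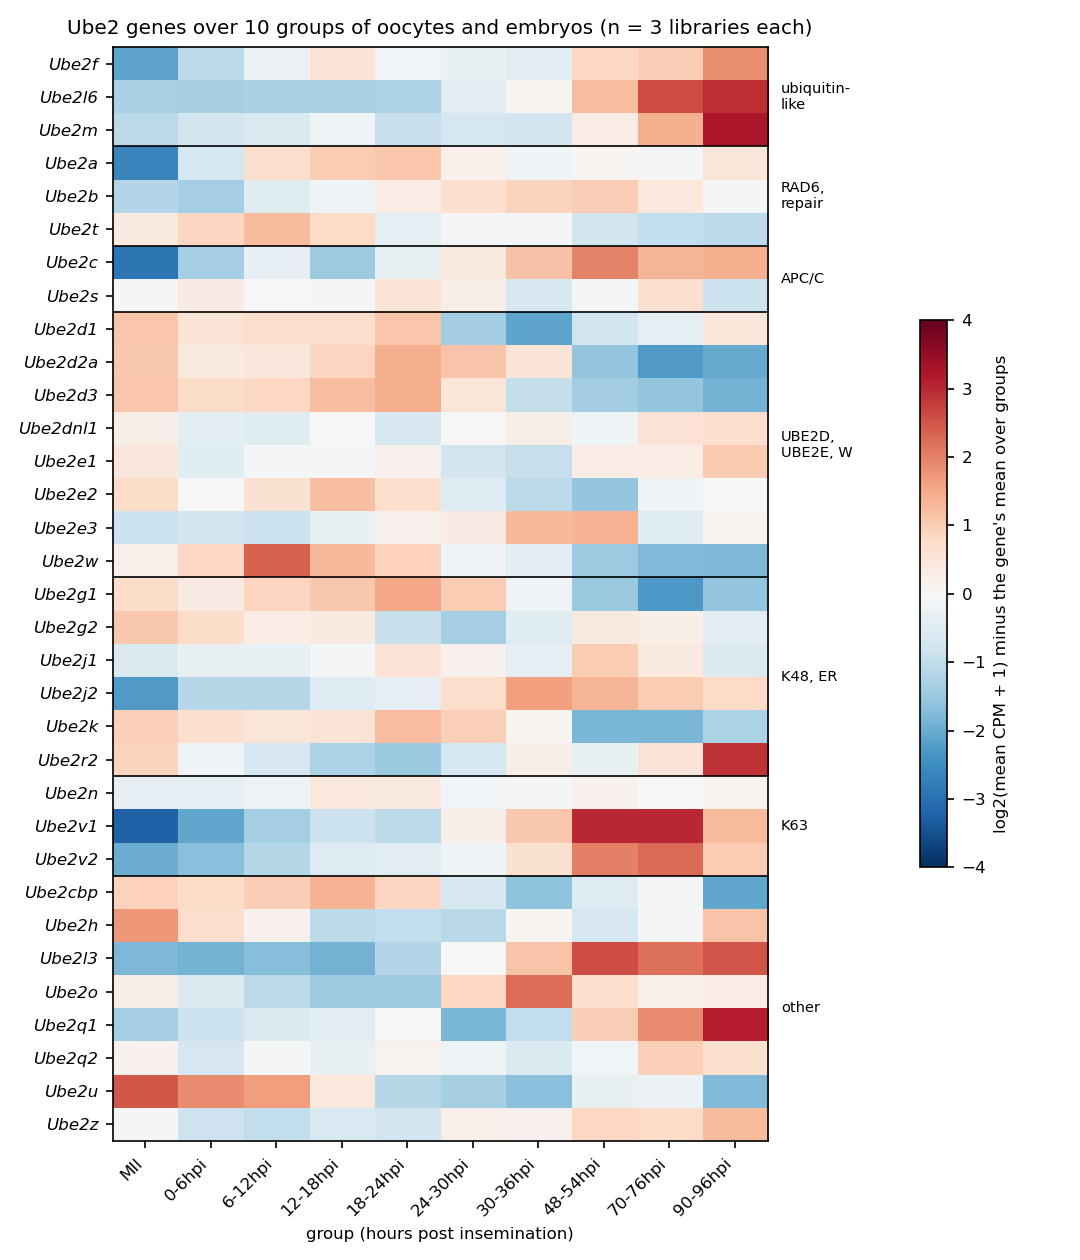
Heat map of 33 of the 34 tested Ube2 genes (rows, grouped by role) over the 10 groups (columns, hours post insemination). Color gives log2(mean CPM + 1) of 3 libraries minus the gene's own mean over groups, so red marks a group above and blue a group below that mean. Ube2v1, Ube2v2, Ube2l3 and Ube2c turn from blue to red along the columns and Ube2d3, Ube2d2a and Ube2w from red to blue.

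From MII oocytes to 0-6hpi 7 members rose and 9 fell, while 12.9% of all genes were called higher and 8.28% lower. The members' split at this step was 6 higher and 10 lower with DESeq2 size factors and 8 higher and 6 lower with total counts. Of all genes called, 49.4% and 78.3% were higher under these settings, against 60.9% in the main test. At 6-12hpi 8 rose and 1 fell (all genes: 4.73% and 2.93%), and at 12-18hpi 8 rose and 5 fell (7.11% and 6.09%). Both of these counts leaned on single libraries. For 6-12hpi against 0-6hpi the total fell from 9 to 5 without 6-12hpi replicate 1 or without 0-6hpi replicate 3. Over all genes it fell from 1243 to 820 and 739. For 12-18hpi against 6-12hpi it fell from 13 to 5 without 12-18hpi replicate 2 and to 7 without 6-12hpi replicate 3. Over all genes it fell from 2143 to 1201 and 1359. The members' balance at 12-18hpi turned as well. It was 1 higher and 4 lower without 12-18hpi replicate 2 and 3 higher and 4 lower without 6-12hpi replicate 3. Without 12-18hpi replicate 1 it was 5 and 5. Of all genes called at 12-18hpi, 53.8% were higher in the main test and 34.1%, 34.1% and 43.2% without these libraries in turn. At 18-24hpi 9 rose and 5 fell (18.1% and 14.9%), with 12 and 4 by total counts. The higher share of all genes called there went from 55.0% to 64.3% by total counts. At 24-30hpi 9 rose and 12 fell (21.0% and 24.4%), and total counts turned this balance to 13 higher and 7 lower. It also turned on single libraries, with 12 higher and 7 lower without 24-30hpi replicate 1. Without any 1 library of 18-24hpi it was 10 to 12 higher and 8 to 9 lower. The balance over all genes turned in the same way. Of all genes called, 46.3% were higher in the main test and 69.0% with total counts. That share was 60.7% without 24-30hpi replicate 1 and 57.8% to 58.5% without any 1 library of 18-24hpi. At 30-36hpi 11 rose and 10 fell (21.0% and 29.0%).

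The step from 30-36hpi to 48-54hpi changed the largest number of members, 18 upward and 9 downward, beside 28.7% and 33.3% of all genes. The members' median log2 fold change was 0.53 and that of all genes -0.19. Total counts shifted the median of all genes by -0.48 at this step and gave 12 members higher and 13 lower. Without any 1 library of 48-54hpi the split was 13 higher and 10 to 11 lower. Of all genes called, 46.2% were higher in the main test and 32.5% with total counts. That share was 37.0% to 39.2% without any 1 library of 48-54hpi. At 70-76hpi 8 members rose and 9 fell (21.6% and 21.8%), or 11 and 4 by total counts. The higher share of all genes called there was 49.8% in the main test and 61.7% by total counts. At 90-96hpi 12 rose and 8 fell (20.1% and 19.5%). Total counts moved the median of all genes by more than 0.1 on the log2 scale at other steps too, by 0.16 at 0-6hpi, 0.12 at 18-24hpi, 0.41 at 24-30hpi, 0.22 at 70-76hpi, 0.11 at 90-96hpi and 0.52 for 90-96hpi against MII. Changes of single members are given on the TMM scale.

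**Figure D2:**
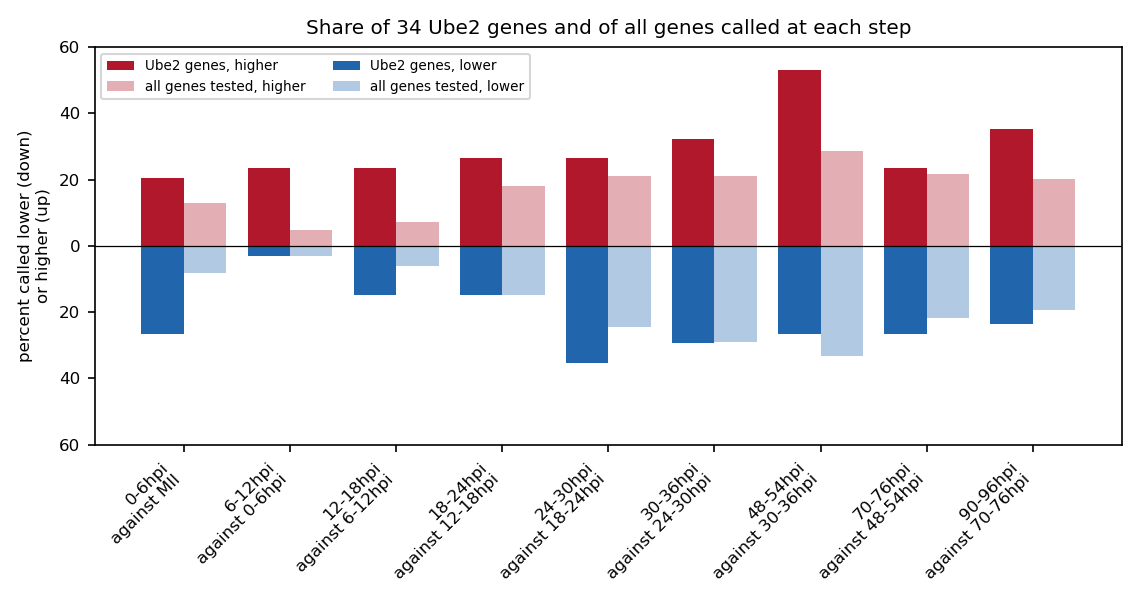
Percent of the 34 tested Ube2 genes (dark bars) and of all 16234 genes tested (pale bars) called higher (red, upward) or lower (blue, downward) at each of the 9 steps between neighbouring groups. The dark red bar is tallest at 48-54hpi against 30-36hpi, where 18 members were called higher beside 28.7% of all genes.

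Of the members that carry the results, 4 are shown here with the DNA just before their listed start. Ube2c, Ube2l3 and Ube2v1 ended above their MII level, and Ube2d3 ended below it. These stretches were chosen after the values were seen. The sequences are RefSeq's on GRCm38.p6, and windows of 250 bases before to 50 after a start were found for 30 of the 38 members, Ube2o not among them. Each line gives the 120 bases before the first listed start, 5′ to 3′ on the gene's strand, with capitals on any match, on either strand, to any of 4 motifs. These were CACCC (the box bound by Klf factors), GGGCGG (the GC box), CCAAT (the CCAAT box) and TTTGAA (the cell cycle homology element). No pair of these motifs overlapped in the 4 stretches. The Ube2c stretch lies on the plus strand at chr2:164769809-164769928, and that of Ube2d3 on the plus strand at chr3:135438112-135438231. The Ube2l3 stretch lies on the minus strand at chr16:17201493-17201612, and that of Ube2v1 on the minus strand at chr2:167632006-167632125. RefSeq's gene bounds put the 5′ end of Ube2l3 at 17201512 and that of Ube2v1 at 167632020. Both positions lie inside the stretches, so part of each falls within those bounds.
Ube2c: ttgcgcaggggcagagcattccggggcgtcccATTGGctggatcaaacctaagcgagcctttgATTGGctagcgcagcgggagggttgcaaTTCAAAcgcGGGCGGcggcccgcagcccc
Ube2l3: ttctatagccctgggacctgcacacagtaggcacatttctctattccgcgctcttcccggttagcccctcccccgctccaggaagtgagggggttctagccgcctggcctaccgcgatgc
Ube2v1: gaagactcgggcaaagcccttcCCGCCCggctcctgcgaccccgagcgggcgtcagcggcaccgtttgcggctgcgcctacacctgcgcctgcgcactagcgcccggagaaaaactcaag
Ube2d3: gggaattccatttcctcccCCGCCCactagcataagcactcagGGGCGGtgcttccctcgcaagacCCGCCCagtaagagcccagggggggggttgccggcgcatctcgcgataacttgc
The Ube2c stretch held 2 matches to CCAAT and 1 each to TTTGAA and to GGGCGG. The Ube2d3 stretch held 3 matches to GGGCGG, that of Ube2v1 held 1 and that of Ube2l3 none of the 4 motifs. Over the full windows of the 30 members, GGGCGG was found in 23 and CACCC in 25, beside 38.2% and 59.8% of the 27025 genes with a window. CCAAT was found in 9 of the 30 and TTTGAA in 4, beside 41.1% and 20.2% of all genes.

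The UBE2D class works with a wide range of RING ligases and often places the first ubiquitin on a substrate. Ube2d3 and Ube2d2a of this class were among the abundant E2 transcripts of the oocyte and zygote. Ube2d3 read 3639, 4026 and 4468 CPM in the 3 MII libraries, 2999, 3533 and 2994 at 0-6hpi, 3498, 3197 and 3329 at 6-12hpi and 4191, 4618 and 4465 at 12-18hpi. It read 4872, 5091 and 5445 CPM at 18-24hpi, 2517, 2832 and 2586 at 24-30hpi and 987, 897 and 1041 at 30-36hpi. Its libraries at 48-54hpi gave 657, 786 and 702 CPM, those at 70-76hpi 608, 669 and 655 and those at 90-96hpi 545, 445 and 528. The 3 libraries of 18-24hpi were the highest of the time course, and from there each later group lay wholly below the one before up to 48-54hpi. The fall at 24-30hpi (log2 change -0.96, SE 0.10, adjusted p = 1.88e-09) and that at 30-36hpi (log2 change -1.44, SE 0.10, adjusted p = 2.74e-13) were called under every alternative run. Between MII and 90-96hpi the difference was -3.00 on the log2 scale (SE 0.11, adjusted p = 2.09e-23).

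Ube2d2a, which encodes a protein closely alike to that of Ube2d3, kept more of its 18-24hpi level to 30-36hpi than Ube2d3 did. It had 682 ± 42.2 CPM in MII oocytes, 863 ± 77.2 at 18-24hpi and 465 ± 13.3 at 30-36hpi, where it lay below Ube2d3 in CPM. Per kilobase of the deposited gene length, Ube2d2a had a mean of 289 CPM at 24-30hpi and 187 at 30-36hpi. Its libraries then read 112, 105 and 106 CPM at 48-54hpi, far below the 452, 465 and 478 CPM of 30-36hpi (log2 change -2.11, SE 0.11, adjusted p = 1.09e-17), the largest fall at that step. Per base of the deposited gene length, the Ube2d2a to Ube2d3 ratio was 1.24 to 1.36 over the libraries of 18-24hpi, 2.03 to 2.17 at 24-30hpi, 3.56 to 4.03 at 30-36hpi and 1.04 to 1.32 at 48-54hpi. The ratio at 30-36hpi lay above that of each other group. The smaller change of Ube2d2a at 24-30hpi (log2 change -0.27, SE 0.11, adjusted p = 0.0402) turned to 0.14 by total counts and lost its call in 10 of 12 alternatives, among them each that left out 1 of the 6 libraries, so no direction is given for it. Reads that fit both copies cannot be assigned from these tables, since the handling of reads with several matches is not given in the sources used here. The same holds for the UBE2D, UBE2E and UBE2V pairs and for any E2 with retrocopies.

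Ube2d1, the third member of the class, was a rare transcript that made the largest fall at 24-30hpi. It read 23.8, 20.9 and 36.5 CPM at 18-24hpi and 2.197, 4.84 and 5.00 CPM at 24-30hpi, with no overlap (log2 change -2.75, SE 0.31, adjusted p = 5.94e-09). It was higher again at 48-54hpi, at 6.498 ± 1.18 CPM (log2 change 1.67, SE 0.34, adjusted p = 5.72e-05), and reached 17.1 ± 3.19 CPM at 90-96hpi.

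Ube2w, which attaches ubiquitin to the amino terminus of proteins, had a peak of its own after fertilization. Its libraries read 113, 125 and 137 CPM in MII oocytes, 214, 192 and 182 at 0-6hpi, 581, 592 and 525 at 6-12hpi and 256, 256 and 297 at 12-18hpi. The 3 libraries of 6-12hpi stood above those of every other group, and Ube2w made the largest rise at that step (log2 change 1.53, SE 0.13, adjusted p = 8.85e-11) and fell at the next (log2 change -1.07, SE 0.13, adjusted p = 1.29e-07). By 90-96hpi it had 31.1 ± 2.61 CPM.

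The UBE2E enzymes, related to UBE2D but with an extended amino terminus, did not move as one. Ube2e3 read 155, 168 and 157 CPM at 24-30hpi, 314, 333 and 305 at 30-36hpi and 372, 344 and 292 at 48-54hpi, and then 91.2, 95.4 and 80.2 at 70-76hpi. The 30-36hpi and 48-54hpi libraries lay above the rest. The rise at 30-36hpi (log2 change 0.99, SE 0.15, adjusted p = 1.01e-06) was followed at 70-76hpi by the largest fall of that step (log2 change -1.92, SE 0.15, adjusted p = 1.24e-12). Ube2e1 stayed between 10.8 and 45.6 CPM in group means, and Ube2e2 between 0.879 and 11.5 CPM. Counting Ube2w and Ube2dnl1, 8 members of this role were tested. At 24-30hpi 6 of the 8 were called lower and none higher, beside 24.4% and 21.0% of all genes, with a median log2 fold change of -0.94 against -0.12 over all genes. Ube2d3, Ube2d1 and Ube2w kept the call under every alternative run, and Ube2d2a is the member for which no direction is given. Ube2e1 lost its call with total counts (0.0615) and on leaving out 24-30hpi replicate 1 (0.0927), and Ube2e2 with total counts (0.0708) and on leaving out 24-30hpi replicate 1 (0.127), 24-30hpi replicate 3 (0.0687), 18-24hpi replicate 1 (0.114) or 18-24hpi replicate 2 (0.0647), adjusted p in parentheses.

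The anaphase-promoting complex builds chains with a pair of E2s: Ube2c starts them and Ube2s extends them. Their transcripts followed different courses. Ube2c read 31.5, 29.1 and 36.4 CPM in MII oocytes, 97.3, 93.8 and 93.6 at 0-6hpi, 202, 186 and 192 at 6-12hpi and 90.6, 74.2 and 102 at 12-18hpi. It read 191, 197 and 208 CPM at 18-24hpi, 311, 341 and 315 at 24-30hpi and 501, 570.3 and 608 at 30-36hpi. It read 906, 980.4 and 1015 CPM at 48-54hpi, 709.6, 629 and 551 at 70-76hpi and 642, 699 and 687 at 90-96hpi. Every MII library lay below every embryo library. The climb was broken by a dip at 12-18hpi (log2 change -1.12, SE 0.12, adjusted p = 9.78e-09) between the rises at 6-12hpi (log2 change 1.03, SE 0.12, adjusted p = 6.68e-08) and 18-24hpi (log2 change 1.16, SE 0.12, adjusted p = 5.73e-10), the latter the largest rise of its step. From MII to 90-96hpi the rise was 20.9-fold (log2 change 4.39, SE 0.13, adjusted p = 1.08e-25).

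Ube2s read 32.3, 33.5 and 34.8 CPM in MII oocytes, 19.2, 28.8 and 19.1 at 30-36hpi, 54.9, 49.0 and 64.2 at 70-76hpi and 24.3, 14.1 and 18.1 at 90-96hpi. It stayed within 18.8 to 56.0 CPM in group means. It was called lower at 30-36hpi (log2 change -0.90, SE 0.21, adjusted p = 6.64e-04), higher at 70-76hpi (log2 change 0.74, SE 0.21, adjusted p = 0.00450) and lower at 90-96hpi (log2 change -1.57, SE 0.22, adjusted p = 3.77e-07). Per base of gene length, the libraries held 1.62 to 1.95 times as much Ube2c as Ube2s in MII oocytes, 37.0 to 59.4 times at 30-36hpi and 49.4 to 92.5 times at 90-96hpi.

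The RAD6 enzymes Ube2a and Ube2b place single ubiquitins on histone H2B and on the replication clamp PCNA, and Ube2t serves the Fanconi anemia repair pathway. Ube2a made the largest rise at 0-6hpi. Its libraries read 15.6, 16.2 and 13.6 CPM in MII oocytes, 51.4, 72.9 and 58.0 at 0-6hpi, 183, 159 and 146 at 6-12hpi and 224, 206 and 211 at 18-24hpi. None of the first 3 groups overlapped. The rises at 0-6hpi (log2 change 2.00, SE 0.15, adjusted p = 1.61e-12) and 6-12hpi (log2 change 1.42, SE 0.14, adjusted p = 2.20e-09) held under every alternative run. At 24-30hpi Ube2a was down to 113 ± 9.94 CPM (log2 change -0.91, SE 0.14, adjusted p = 9.10e-07).

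Its paralog Ube2b read 28.0, 33.6 and 34.1 CPM at 0-6hpi, 61.1, 58.3 and 55.1 at 6-12hpi, 104, 107 and 92.2 at 18-24hpi and 170.4, 166 and 152 at 48-54hpi. These 4 groups did not overlap, and the rise at 6-12hpi was called (log2 change 0.87, SE 0.15, adjusted p = 1.08e-04). Ube2t peaked at 6-12hpi and then declined. It read 248, 256 and 245 CPM at 6-12hpi, 167, 184 and 196 at 12-18hpi and 74.8, 76.4 and 88.9 at 18-24hpi, and the fall at 18-24hpi was the largest of that step (log2 change -1.19, SE 0.15, adjusted p = 1.04e-07). Its 90-96hpi mean was 49.8 ± 2.01 CPM.

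Ube2n builds chains linked through lysine 63 of ubiquitin, a linkage used in signalling and repair, and needs as a partner Ube2v1 or Ube2v2, E2-like proteins without the catalytic cysteine. Ube2n stayed within a narrow band, with group means from 170.1 to 301 CPM. It read 145, 191 and 196 CPM in the MII libraries and 283, 209.9 and 248 in those of 90-96hpi. Both partners rose. Ube2v1 read 2.34, 2.31 and 2.65 CPM in MII oocytes, 6.88, 5.67 and 7.605 at 0-6hpi, 11.9, 12.1 and 10.4 at 6-12hpi and 17.0, 17.5 and 16.3 at 12-18hpi. It read 14.7, 12.3 and 16.5 CPM at 18-24hpi, 33.7, 29.0 and 47.6 at 24-30hpi and 69.0, 66.9 and 66.3 at 30-36hpi. It read 256, 290.1 and 236 CPM at 48-54hpi, 232, 276 and 271 at 70-76hpi and 116, 47.5 and 64.4 at 90-96hpi. The libraries of 48-54hpi and 70-76hpi lay above all others, and the rise at 48-54hpi was the largest of that step (log2 change 1.95, SE 0.20, adjusted p = 2.23e-10). It fell at 90-96hpi (log2 change -1.77, SE 0.20, adjusted p = 7.00e-09).

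Ube2v2 took a like course, with 8.17, 8.70 and 9.17 CPM in MII oocytes, 64.5, 67.3 and 39.6 at 30-36hpi, 180.3, 191 and 182 at 70-76hpi and 77.6, 66.1 and 83.0 at 90-96hpi. It rose at 48-54hpi (log2 change 1.42, SE 0.18, adjusted p = 1.31e-08) and fell at 90-96hpi (log2 change -1.29, SE 0.18, adjusted p = 2.58e-07). The balance between the partners and the enzyme shifted. Per base of gene length, the Ube2v1 to Ube2n ratio was 0.0229 to 0.0305 in MII oocytes, 0.0850 to 0.0977 at 18-24hpi, 1.99 to 2.37 at 70-76hpi and 0.429 to 0.774 at 90-96hpi. The Ube2v2 to Ube2n ratio went from 0.0418 to 0.0519 to 0.741 to 0.795 between MII and 70-76hpi. All 3 genes of this role were called higher at 90-96hpi than in MII oocytes, beside 42.6% of all genes.

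**Figure D3:**
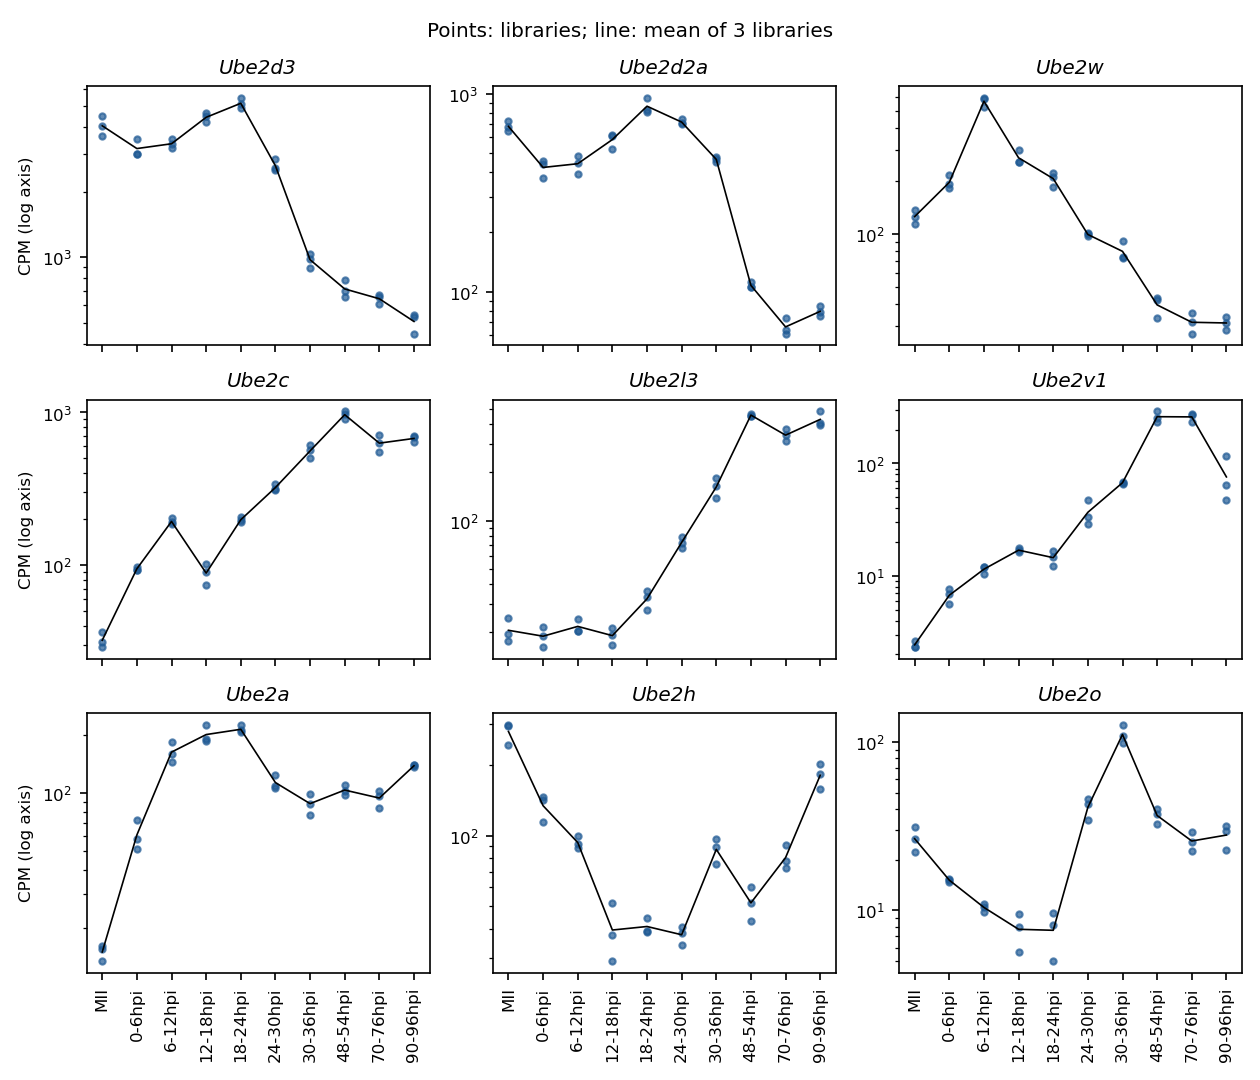
Level of 9 Ube2 genes in each of the 30 libraries (points, CPM on a log axis) over the 10 groups, with the group mean as a line. Ube2d3, Ube2d2a and Ube2w end below their MII level, Ube2c, Ube2l3 and Ube2v1 end above it, Ube2a rises up to 18-24hpi, Ube2h is lowest between 12 and 30hpi, and Ube2o peaks at 30-36hpi.

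Enzymes that build lysine-48 chains, the mark for the proteasome, moved in both directions. Ube2k makes such chains by itself and Ube2g1 extends them for cullin-RING ligases. Ube2k libraries read 370.3, 428 and 412 CPM at 18-24hpi, 164, 195 and 185 at 30-36hpi and 47.2, 50.2 and 43.1 at 48-54hpi, and those of Ube2g1 384, 369.9 and 461, 123, 132 and 123 and 52.4, 45.5 and 51.7 CPM in the same groups. In both genes the 3 groups did not overlap. The fall at 48-54hpi had a log2 fold change of -1.95 for Ube2k (SE 0.13, adjusted p = 6.58e-15) and -1.34 for Ube2g1 (SE 0.12, adjusted p = 5.37e-12).

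Ube2j2, anchored in the endoplasmic reticulum and used in the disposal of misfolded proteins there, rose instead. It read 9.77, 12.2 and 13.4 CPM in MII oocytes, 38.5, 48.1 and 51.2 at 18-24hpi, 98.9, 88.1 and 109 at 24-30hpi and 188, 182 and 204 at 30-36hpi. The steps at 24-30hpi (log2 change 1.11, SE 0.15, adjusted p = 1.57e-07) and 30-36hpi (log2 change 0.95, SE 0.15, adjusted p = 1.27e-06) raised it above every earlier library. Ube2j1 and Ube2g2, E2s of the same disposal route, were rarer, with group means of 16.04 to 49.95 CPM and 4.22 to 27.0 CPM. Ube2r2, a partner of SCF ligases and a paralog of Cdc34, was rare until the last window, where it made the largest rise. It read 16.8, 14.3 and 13.7 CPM at 70-76hpi and 71.1, 87.8 and 83.7 CPM at 90-96hpi (log2 change 2.44, SE 0.27, adjusted p = 3.80e-09).

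Among the E2s for other ubiquitin-like proteins, the NEDD8 enzymes Ube2f and Ube2m, which switch on cullin-RING ligases, started low. Ube2f had 5.58 ± 1.06 CPM in MII oocytes and 101 ± 19.0 at 90-96hpi (log2 change 4.17, SE 0.26, adjusted p = 8.43e-17). Its libraries read 25.4, 24.7 and 19.0 CPM at 6-12hpi and 38.3, 45.6 and 36.6 at 12-18hpi, the largest rise at that step (log2 change 0.80, SE 0.23, adjusted p = 0.0141). That call was lost on leaving out 12-18hpi replicate 1 (0.0518), 12-18hpi replicate 2 (0.149) or 6-12hpi replicate 3 (0.152), adjusted p in parentheses. Ube2m read 2.02, 0.550 and 1.10 CPM in MII oocytes, 3.56, 4.89 and 5.92 at 48-54hpi, 11.4, 9.42 and 13.6 at 70-76hpi and 41.9, 47.7 and 39.4 at 90-96hpi. These 4 groups did not overlap, and each of the last 3 steps was called, the last with the largest change (log2 change 1.91, SE 0.41, adjusted p = 2.81e-04). Its call at 48-54hpi was lost with total counts (0.0599) and on leaving out 48-54hpi replicate 3 (0.109), and that at 70-76hpi on leaving out 70-76hpi replicate 3 (0.0572) or 48-54hpi replicate 1 (0.0739), adjusted p in parentheses. Ube2l6, the E2 for the interferon-induced modifier ISG15, had 0 or 1 read in each library up to 18-24hpi. It had 1 to 20 reads a library at 24-30hpi and 101 to 233 at 90-96hpi, a level of 18.4 ± 7.17 CPM.

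Ube2l3, an E2 that works with HECT and RING-between-RING ligases, had the smallest adjusted p of the family for a difference among the groups (3.94e-30). It read 19.4, 17.7 and 24.6 CPM in MII oocytes, 16.1, 19.1 and 21.6 at 0-6hpi, 20.4, 20.5 and 24.4 at 6-12hpi and 16.7, 19.2 and 21.3 at 12-18hpi. It read 27.7, 36.2 and 33.3 CPM at 18-24hpi, 67.6, 78.5 and 72.8 at 24-30hpi and 164, 183 and 139 at 30-36hpi. It read 453, 453 and 462 CPM at 48-54hpi, 372, 313 and 340.1 at 70-76hpi and 480.4, 396 and 409.7 at 90-96hpi. The first 4 groups overlapped one another, and from 18-24hpi to 48-54hpi each group stood wholly above the one before. The 4 rises were 0.76, 1.17, 1.15 and 1.49 on the log2 scale, with SEs of 0.15, 0.14, 0.14 and 0.14 and a largest adjusted p of 1.16e-04, and each held under every alternative.

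Ube2o, a large enzyme that combines E2 and E3 activity, was highest at 30-36hpi. It read 31.2, 22.1 and 26.6 CPM in MII oocytes, 15.3, 15.2 and 14.8 at 0-6hpi, 9.80, 10.5 and 10.9 at 6-12hpi and 5.66, 9.54 and 7.96 at 12-18hpi. It read 8.16, 9.68 and 5.00 CPM at 18-24hpi, 42.9, 34.3 and 45.7 at 24-30hpi and 98.9, 108 and 126 at 30-36hpi. It read 39.99, 32.6 and 37.3 CPM at 48-54hpi, 29.3, 25.6 and 22.7 at 70-76hpi and 29.5, 22.97 and 31.6 at 90-96hpi. The libraries of 30-36hpi stood above all others. Ube2o made the largest rise at 24-30hpi (log2 change 2.42, SE 0.23, adjusted p = 1.41e-10) and again at 30-36hpi (log2 change 1.44, SE 0.21, adjusted p = 6.37e-07), and fell at 48-54hpi (log2 change -1.60, SE 0.21, adjusted p = 4.50e-08).

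Ube2h, the E2 of the GID/CTLH ligase that clears proteins at the passage from egg to embryo in fruit flies, fell in steps after fertilization. Its libraries read 296, 294 and 244 CPM in MII oocytes, 142, 115 and 146 at 0-6hpi, 92.3, 99.3 and 88.5 at 6-12hpi and 37.7, 51.7 and 29.1 at 12-18hpi. Neighbouring groups did not overlap, and Ube2h made the largest fall at 0-6hpi (log2 change -1.05, SE 0.16, adjusted p = 6.50e-06), 6-12hpi (log2 change -0.52, SE 0.16, adjusted p = 0.0394) and 12-18hpi (log2 change -1.24, SE 0.17, adjusted p = 1.53e-06). The call at 6-12hpi was lost with no low-count filter (0.0631) and on leaving out 6-12hpi replicate 1 (0.0775), 6-12hpi replicate 2 (0.0678), 6-12hpi replicate 3 (0.0835), 0-6hpi replicate 1 (0.100) or 0-6hpi replicate 3 (0.111), adjusted p in parentheses. Ube2h was high again at 90-96hpi, at 202, 158 and 182 CPM, after a rise from 80.5 ± 9.42 CPM (log2 change 1.17, SE 0.16, adjusted p = 4.12e-07).

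The remaining members had modest levels. Ube2q2 read 65.8, 73.6 and 92.4 CPM at 48-54hpi and 146, 165 and 174 at 70-76hpi, the largest rise at that step (log2 change 1.06, SE 0.17, adjusted p = 5.30e-06). Its relative Ube2q1 made the largest rise between MII and 90-96hpi: the MII libraries read 1.49, 0.330 and 1.22 CPM and the 90-96hpi libraries 37.4, 57.0 and 39.4 CPM (log2 change 5.44, SE 0.48, adjusted p = 9.47e-13). It passed through a low at 24-30hpi, where its libraries read 0.732, 0.206 and 0.424 CPM. Ube2z, an E2 charged by the E1 Uba6, rose from 9.52 ± 0.605 CPM at 6-12hpi to 49.3 ± 0.616 at 90-96hpi. The ligase Ube2cbp read 33.4, 55.1 and 45.9 CPM in MII oocytes, 20.2, 23.05 and 22.7 at 70-76hpi and 3.77, 3.25 and 7.40 at 90-96hpi, with the largest fall both at the last step (log2 change -2.19, SE 0.28, adjusted p = 9.87e-08) and against MII (log2 change -3.22, SE 0.29, adjusted p = 1.53e-12). Ube2u had 160 to 201 reads a library in MII oocytes and 0 to 2 at 90-96hpi.

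A few members were barely expressed. Ube2dnl1 passed the filter with 218 reads over the 30 libraries, at most 26 in one. Ube2d2b (35 reads in all), Ube2dnl2 (16) and Ube2ql1 (81) did not pass it in the time course. In the genotype table Ube2d4, with 2 reads, and Ube2dnl2, with 6, did not pass.

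Levels per kilobase of the deposited gene length changed in order over time among the members described here. In MII oocytes Ube2d2a led with 275 ± 17.0 CPM per kilobase, above Ube2d3 with 209.6 ± 21.5 and with no overlap between the 2 genes. The deposited length of Ube2d3 is 19300 bases and that of Ube2d2a 2483. At 6-12hpi Ube2w led with 259.6 ± 16.5, and Ube2d2a (178 ± 18.3) and Ube2d3 (173 ± 7.80) lay lower and overlapped each other. At 30-36hpi Ube2c was ahead with 256 ± 24.8, then Ube2d2a with 187 ± 5.34 and Ube2e3 with 141 ± 6.37, with no overlap among the 3. At 48-54hpi Ube2c reached 441 ± 25.3 CPM per kilobase, while Ube2l3 (151 ± 1.83), Ube2e3 (149.5 ± 18.02) and Ube2v1 (128 ± 13.4) overlapped in turn. The comparison rests on the deposited lengths, whose definition is not given in the sources used here.

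Other genes of the cascade were counted for the same steps, on the TMM scale alone. Of all genes, 28.7% were called higher and 33.3% lower at 48-54hpi, 20.1% and 19.5% at 90-96hpi against 70-76hpi, and 42.6% and 38.4% at 90-96hpi against MII. Of 7 tested E1 activating enzymes, which charge the E2s, 4 rose and none fell at 48-54hpi, and at 90-96hpi none rose and 4 fell. Against MII, 3 of the 7 were called higher at 90-96hpi and 4 lower. The NEDD8 E1 subunit Nae1 had 910.2 ± 82.2 CPM in MII oocytes and 74.5 ± 3.23 at 90-96hpi, and the SUMO E1 subunit Sae1 23.1 ± 0.881 and 104 ± 27.0 CPM. Of 11 ubiquitin and ubiquitin-like genes 9 rose and none fell at 48-54hpi, with a median log2 fold change of 1.07 against -0.19 over all genes. Of these, the ribosomal-fusion ubiquitin gene Rps27a changed by 1.74 on the log2 scale (adjusted p = 1.98e-10). Of 17 genes of the anaphase-promoting complex and its activators 10 rose and 1 fell at 48-54hpi, and 2 rose and 9 fell at 90-96hpi. Against MII, 7 of the 17 were called higher and 8 lower at 90-96hpi. Among the latter, its subunit Cdc27 had 506 ± 51.3 CPM in MII oocytes and 53.2 ± 2.38 at 90-96hpi, and the activator Cdc20 599 ± 44.8 and 301 ± 93.9.

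Of 18 cullin-RING genes 10 rose and 7 fell at 48-54hpi, and 5 were called higher and 8 lower at 90-96hpi than in MII oocytes. The RING subunit Rnf7 went from 14.7 ± 2.80 CPM in MII oocytes to 431 ± 66.8 at 90-96hpi and the NEDD8 ligase Dcun1d1 from 969 ± 50.1 to 68.3 ± 4.89. Of 31 E3 ligases that work with E2s of the family 14 rose and 12 fell at 48-54hpi, and 10 were called higher and 13 lower at 90-96hpi than in MII oocytes. Among the latter, the SUMO ligase Pias1 had 718 ± 28.2 CPM in MII oocytes and 24.1 ± 2.49 at 90-96hpi, and Rnf168, which works with Ube2n at DNA breaks, 301 ± 3.86 and 24.2 ± 2.05. Of 9 E2-fold proteins outside the Ube2 symbols 5 rose and 3 fell at 48-54hpi, among them Ufc1, the E2 for UFM1, at 1.52 (adjusted p = 4.22e-09), beside Cdc34b at -5.58 (adjusted p = 1.06e-11).

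The second question was what the E2 genes did when Klf17, a zinc-finger transcription factor, was knocked out. The level of Klf17 did not separate KO or mKO from ctrl. It read 603 to 728 CPM in the 3 libraries labelled KO, 596 to 805 in ctrl, 359 to 845 in mKO and 812 to 1015 in pKO, whose 2 libraries lay above all ctrl and all KO libraries. Reads from outside a deleted part would not show a deletion, and the position of the allele is not given in the sources used here, so each direction below belongs to the libraries as labelled. The libraries labelled KO also differed from ctrl in summed marker levels. The 9 oocyte genes summed to 2841 to 3410.5 CPM in them and to 1633 to 2295 in ctrl, with 2048 to 3036 in mKO and 1750.0 to 1865 in pKO, and no gene of the list was at 0. The 7 genes of the 2-cell embryo summed to 1375 to 1467 CPM in KO, 1558 to 2411 in ctrl, 1221 to 1507 in mKO and 1715 to 2369 in pKO. In the time course the 2-cell list was highest at 48-54hpi. On both lists KO did not overlap ctrl, and on the 2-cell list mKO also lay wholly below ctrl. The cumulus-cell list summed to 7.31 to 12.1 CPM in KO and 12.5 to 23.2 in ctrl, and the blastocyst list to 311 to 467 and 396 to 518. The part of these marker differences in the results below was not tested.

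In the libraries labelled KO, 2 of the 36 tested members were called against ctrl, both lower, beside 6.31% of all genes called lower and 1.82% called higher. At an unadjusted p under 0.05 there were 12 of the 36 members, beside 4295 of the 16694 genes tested. The count of 2 was down to 1 without KO replicate 3 or ctrl replicate 1 and to 0 without any other 1 of the 6 libraries. The count over all genes was no steadier: 1358 genes were called, and 0 without KO replicate 2, 188 without ctrl replicate 3, 269 without KO replicate 1, 270 without ctrl replicate 2, 586 without KO replicate 3 and 892 without ctrl replicate 1. The first called member was Ube2o. It read 101, 157 and 151 CPM in ctrl, 36.8, 23.3 and 58.2 in KO, 28.7, 76.4 and 73.9 in mKO and 114 and 145 in pKO. All KO and all mKO libraries lay below all ctrl libraries, and the pKO pair lay within the ctrl range. The KO difference was -1.79 on the log2 scale (SE 0.40, adjusted p = 0.0153). The call was lost on leaving out KO replicate 1 (0.0631), KO replicate 2 (0.0907), ctrl replicate 2 (0.0618) or ctrl replicate 3 (0.0614), adjusted p in parentheses. In the wild-type windows Ube2o had risen at 24-30hpi and again at 30-36hpi.

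The second was Ube2l3, which read 151, 89.7 and 97.5 CPM in ctrl, 59.4, 55.4 and 35.1 in KO, 53.1, 85.3 and 62.4 in mKO and 181 and 96.6 in pKO. KO and mKO did not overlap ctrl, and the pKO pair held values within and above the ctrl range. The KO difference was -1.17 on the log2 scale (SE 0.34, adjusted p = 0.0418). It was lost with DESeq2 size factors (0.0573) and on leaving out KO replicate 1 (0.0814), KO replicate 2 (0.121), KO replicate 3 (0.143), ctrl replicate 1 (0.146), ctrl replicate 2 (0.0853) or ctrl replicate 3 (0.0974), adjusted p in parentheses. In a single test over the 4 genotypes 1 member, Ube2o, was called (adjusted p = 0.0309), beside 4.61% of all genes, and Ube2l3 had an adjusted p of 0.0526. That count was 0 with total counts, 4 with no low-count filter and 3 with the replicate block.

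**Figure D4:**
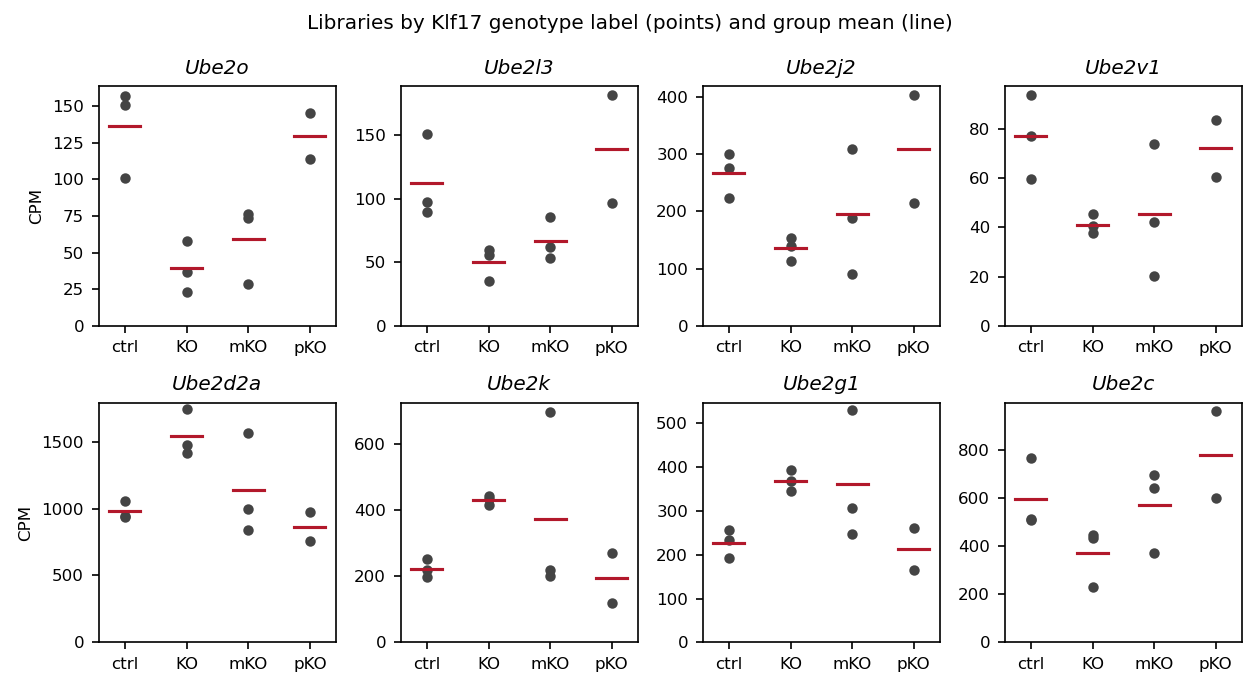
Level of 8 Ube2 genes in each library of the 4 Klf17 genotype labels (points, CPM on a linear axis from 0) with the group mean as a red line; n = 3 libraries for ctrl, KO and mKO and 2 for pKO. Ube2o and Ube2l3, the 2 members called for KO against ctrl, lie below ctrl in all 3 KO libraries; the other 6 genes were not called.

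The other 10 members with an unadjusted p under 0.05 in KO did not pass the adjustment. Lower means were seen for Ube2j2 (136 ± 19.7 CPM in KO and 267 ± 38.9 in ctrl, adjusted p = 0.104), Ube2v1 (41.1 ± 3.93 and 77.0 ± 17.0, 0.147), Ube2c, Ube2t, Ube2h and Ube2g2. Higher means were seen for Ube2d2a (1544 ± 174 and 979 ± 66.6 CPM, adjusted p = 0.133), Ube2k (429.8 ± 12.9 and 223 ± 27.5, 0.150), Ube2g1 and Ube2a. The median log2 fold change over the 36 members was 0.14, and 0.05 over all genes. With only the KO and ctrl libraries in the fit, 7 members were called, 3 of them higher and 4 lower. The count over all genes rose from 1358 to 3166 in that fit, and the higher share among them from 22.4% to 37.3%.

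The KO differences can be set beside the wild-type changes, since the 2 experiments share no library. Across the 34 Ube2 genes tested in both, the KO log2 fold change had a Pearson's r of -0.602 (Spearman rho -0.587) with the change at 24-30hpi against 18-24hpi, and -0.513 (-0.558) with that at 30-36hpi against 24-30hpi. Members that rose in those windows thus tended to be lower in KO. Over all 15388 genes tested in both, the values were -0.331 (-0.393) and -0.488 (-0.577), so the direction was not particular to E2s. These are descriptions across genes, which are not independent replicates, and the windows were chosen after the values were seen.

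For the mKO and pKO labels no member was called by edgeR, and 0% of all genes was called in either direction in each comparison. With DESeq2 the count of members was also 0 in both. At an unadjusted p under 0.05 there were 5 of 36 members in mKO and 2 of 36 in pKO. Of the 16694 genes tested, 1243 passed that threshold in mKO and 476 in pKO. The 2 smallest p-values in mKO belonged to Ube2o (59.7 ± 26.9 CPM against 136 ± 30.7, adjusted p = 0.622) and Ube2r2 (6.85 ± 0.444 against 14.4 ± 1.92, adjusted p = 0.645). In pKO they belonged to Ube2d2b, with 0 reads in pKO and 2 to 23 a library in ctrl, and to Ube2f (46.0 and 16.4 CPM against 18.2, 14.0 and 14.8, adjusted p = 1). Whether the effects of the 3 knockout labels on a member differ from one another was not tested. Called lower in KO were 2 of 7 E1 enzymes, 1 of 11 ubiquitin and ubiquitin-like genes, 3 of 17 genes of the anaphase-promoting complex, 5 of 18 cullin-RING genes, 2 of 31 E3 ligases and 1 of 9 E2-fold proteins outside the Ube2 symbols, beside 6.31% of all genes, and no gene of these lists was called higher. No gene of any kind was called without KO replicate 2, so none of these calls remained there.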

How the data were processed

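SLAM-seq libraries of polyadenylated RNA from 30 oocyte and embryo samples and 11 Klf17 genotype samples were analysed, and the 14 chromatin and 6 embryo-number samples of the 61 were not used here. The deposited values are raw read counts per gene with 1 column a library, per the file headers. In 1 column of the time course (90-96hpi replicate 3) they were rounded, like expected counts, because the last deposited record of that table is damaged, with 1 value that is not whole and no gene length. That record was left out, so the time-course table may be held here only in part. The deposited gene length has no stated definition. Trim Galore 0.6.10, STAR 2.7.10a, SAMtools 1.12, Bowtie2 2.4.2, Picard 2.20.4 and deepTools 3.5.4 are named, with builds mm10 and GRCm38, per the submitters' processing notes. The counting tool, its strand setting and its handling of reads with several matches are not given in the sources used here. Genotype columns headed WT hold the ctrl libraries.

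Genes were kept with edgeR's filterByExpr (minimum count 10, minimum total 15), scaled by TMM (factors from 0.784 to 1.33) and tested with the quasi-likelihood test of edgeR 4.0.16 in R 4.3.3, with 1 fit over the 10 groups and 1 over the 4 genotypes. The p-values were adjusted by Benjamini-Hochberg over all genes tested, with a threshold of 0.05. Alternatives were DESeq2 1.42.0 (its test, and its size factors in edgeR), total-count scaling, no filter, only the 2 groups compared, the replicate number as a block, and leaving out each library. Replicates correlated at r from 0.976 to 0.993 in the time course and 0.913 to 0.980 between genotypes on the log2 scale, and no pair was within sampling noise.

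The members, pathway lists and marker lists were chosen with earlier results of these data known. Members were named by rule: per role up to 3 with the smallest adjusted p over the 10 groups, per step the largest called rise and fall with at least 20 CPM and no overlap, and per genotype the called members or else the 2 with the smallest p. Other members are given by ranges, reads or counts, and some results that the rule would name are not reported here. Figures were drawn with matplotlib 3.10.9 in Python 3.11.15 with pandas 2.3.3. The scripts were tested on simulated data.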

Additional observations from a re-analysis of the deposited data

How the results depend on the processing

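Of 190 calls of single members, 132 were kept under every alternative and 58 were lost under at least 1. The fewest were lost with the replicate block (1) and the DESeq2 test (4 of 190), and total-count scaling lost 24 and turned 2: Ube2d2a at 24-30hpi against 18-24hpi from -0.27 to 0.14, and Ube2q2 at 48-54hpi against 30-36hpi from 0.48 to -0.0014 on the log2 scale. With 3 libraries a group, leaving out 1 library lost 171 of 1140 calls, and fewer libraries enter each such fit. The count for 6-12hpi against 0-6hpi (9) was 15 with only these groups in the fit and 5 to 7 on leaving out a library. That for 12-18hpi against 6-12hpi (13) was 5 to 12 on leaving out a library. For KO against ctrl (2) it was 1 with DESeq2 size factors, 4 with no filter, 7 with only the 2 groups and 0 to 1 on leaving out a library. Over the 4 genotypes (1) it was 0 with total counts, 4 with no filter and 3 with the replicate block. Counts over all genes moved too, with only the 2 groups in the fit. They went from 1243 to 3577 at 6-12hpi and from 1358 to 3166 for KO against ctrl. The cause of these shifts was not tested. The other counts of members stayed within 1.5 times their value under each alternative run, and those for mKO and pKO stayed at 0 throughout. Same-numbered libraries did not deviate together in every pair: the correlations of their deviations ran from -0.0719 to 0.231 in comparisons with 3 pairs, and each library was closest to its own number in 0 to 2 of 3 pairs. For pKO against ctrl, with 2 pairs, they were 0.210 and 0.223, and each library was closest to its own number in 2 of 2. For mKO against ctrl this held in 2 of 3 pairs, at 0.231 and 0.207. No pairing is stated in the sources used here, and the numbers were not taken as pairing libraries. These correlations do not settle whether the genotype libraries are paired by number. The replicate block changed no count by more than 1.5 times, apart from that over the 4 genotypes. A level of 3 reads or fewer summed over the libraries of a group, as for Ube2u at 90-96hpi, gives no usable fold.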
